A study of Mus musculus with 17 samples.

Results

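The comparison described here is between plasmacytoid dendritic cells (pDC) given the TLR9 ligand CpG-B and pDC kept in medium. It rests on 5 of the series' 17 arrays, 3 labelled CpG-B and 2 labelled medium, chosen by their titles, and on the 19751 genes that had a probe set with exactly 1 gene symbol. The cells came from bone marrow of C57BL/6 mice by magnetic negative selection and then by flow sorting for intermediate CD11c with B220 and SiglecH. CpG-B was oligonucleotide 1826 at 6 µg/ml for 19 to 23 h, and the medium cells received neither CpG nor LIF, for a time the labels do not give. The medium arrays are numbered 1 and 3, and no medium replicate 2 is among the 17 arrays. Further arrays are used only beside that comparison: 3 of CpG-B + LIF (10 ng/ml of leukaemia inhibitory factor, started 1 h before the same CpG-B and present for 20 to 24 h), 3 of LIF alone for 20 to 24 h, and 3 of CpG-A (oligonucleotide 2216, also 6 µg/ml for 19 to 23 h). Total RNA was hybridised to Affymetrix arrays. Nothing in the labels says whether arrays of a group came from separate mice or sorts, so p-values measure the spread between these arrays, which may be technical.

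pDC are immune cells that sense viral nucleic acids in endosomes and are known for rapid secretion of type I interferon. TLR9 binds unmethylated CpG DNA and signals through MyD88 either to IRF7, which drives interferon genes, or to NF-kB, which drives cytokines and maturation. CpG-B oligonucleotides are linear and are known as strong inducers of maturation and weak inducers of interferon in pDC, while CpG-A oligonucleotides aggregate through their poly-G ends and are strong inducers of interferon.

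The deposited intensities have lost their decimal mark in all but 1 of 419560 cells, so each is known only up to a power of 10. On the log2 scale a difference between groups is then known only up to multiples of 3.32, and the value nearest to 0, between -1.66 and 1.66, is given as the reading. A change between 3.16-fold and 10-fold therefore reads smaller than it is and in the opposite direction, and a larger one can read either way. A change near 10-fold reads near 0, so a gene that was not called need not be unchanged. A direction is stated where the reading is at most 1.11, that is 2.15-fold, since the other reading would then be at least 4.64-fold the other way. This limit takes no account of the standard error. Many named genes read within their standard error of it, so their stated directions are less certain. For larger readings both possible values are given and no direction. Medians of a list, and its counts above or below 0, use all nearest readings, also those beyond 1.11, whose sign is not settled. All values below are log2 differences from the mean of the medium arrays on this scale, so the medium arrays always stand equally far above and below 0, and levels of different genes cannot be ordered. For the same reason the level of a pDC marker cannot be checked against the sort, and only its change can.

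With CpG-B, 3795 genes passed the test (19.2%, limma with Benjamini-Hochberg adjusted p under 0.05, called from here on). Of these, 1371 genes were higher (6.94%), 1383 were lower (7.0%), and 1041 (5.27%) had 2 possible readings. The CpG-B arrays lay wholly above or wholly below both medium arrays for 8953 genes (45.3%). The median reading over all genes was -0.05, and the median standard deviation within a group was 0.19. Since only 2 medium arrays exist, the counts depend on each of them: without medium replicate 3, 2451 genes were called, 732 of them higher and 715 lower, and without medium replicate 1 the counts were 2583, 793 and 736. As a check on the readings, the differences around medium, CpG-A and CpG-B and around medium, LIF, CpG-B + LIF and CpG-B must add up to 0. They did so for 1299 of the 1371 higher genes and for 1340 of the 1383 lower genes, but for 589 of the 1041 with 2 readings. Of the 15956 genes not called, 15883 had closed loops. Where a loop does not close, at least 1 of its readings is wrong. A closed loop does not show that its readings are right. Small readings add up to 0 by arithmetic, and wrong readings can cancel each other.

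Genes read as higher were named by smallest adjusted p among those without overlapping arrays that stayed called without each array in turn. They included chaperone, protein degradation and nucleolar genes. Dnajb11, an HSP40-type cochaperone of the endoplasmic reticulum (ER), read 1.07, 1.14 and 1.00 in the CpG-B arrays, against -0.01 and 0.01 in the medium arrays. That is a difference of 1.07 ± 0.12 (SE), or 2.10-fold (adjusted p = 7.74e-06, limma). Vcp, the ATPase that pulls misfolded proteins out of the ER for degradation, read 1.03, 1.26 and 0.98 in the CpG-B arrays, against 0.03 and -0.03 in medium (difference 1.09 ± 0.13). Heatr1, which acts in transcription and processing of ribosomal RNA, read 1.04, 1.10 and 1.03 with CpG-B, against -0.01 and 0.01 in medium (1.06 ± 0.12). No overlap between CpG-B and medium arrays was a condition for naming these genes, and it held for 45.3% of all genes. The same rule also named N4bp1, a suppressor of NF-kB-dependent cytokine responses (1.05 ± 0.12), and the nuclear transport GTPase Ran (0.95 ± 0.11). Tapbp (1.02 ± 0.12), Cacybp (1.02 ± 0.12), Zfp451 (0.98 ± 0.12) and Heatr6 (1.07 ± 0.13) were named by it as well. A further gene named by it, Taf1d, was higher at 1.06 ± 0.13 in the probe set used, while 3 of its 6 probe sets read between 0.02 and 0.27 and were not called.

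The genes read as lower that were named by the same rule had varied roles. Inpp5d, the SHIP1 phosphatase that restrains PI3 kinase signalling, read -0.96, -1.07 and -1.28 with CpG-B, against -0.06 and 0.06 in medium (difference -1.10 ± 0.14, adjusted p = 1.65e-05, limma). Dock10, an exchange factor for small GTPases, read -1.06, -0.93 and -1.04 in the CpG-B arrays, against 0.05 and -0.05 in medium (-1.01 ± 0.13). That all CpG-B arrays were below both medium arrays was again a condition for naming them. Also lower were Txnip, an inhibitor of thioredoxin and of glucose uptake (-1.04 ± 0.13), the choline transporter-like gene Slc44a2 (-1.04 ± 0.13), the actin regulator Inf2 (-0.98 ± 0.13), the histone variant gene Macroh2a1 (-1.08 ± 0.14), the lysosomal mannosidase Man2b1 (-1.10 ± 0.14) and the CTP synthase Ctps2 (-1.10 ± 0.14). Casp8, the initiator caspase of death receptors, had the smallest adjusted p of those read as lower (-1.09 ± 0.13, adjusted p = 1.2e-05, limma), yet its loop through CpG-A did not close and another way of placing the arrays read 2.23, so its direction was not settled. Genes with the smallest adjusted p and 2 possible readings included Ranbp2, a nuclear pore protein (1.62 or -1.71), the phosphatase gene Inpp5k (1.59 or -1.74), Klhl24 (-1.65 or 1.67), Rab33b (1.65 or -1.67), Mapk6 (-1.65 or 1.67) and Sh2d3c (-1.49 or 1.84).

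**Figure D1:**
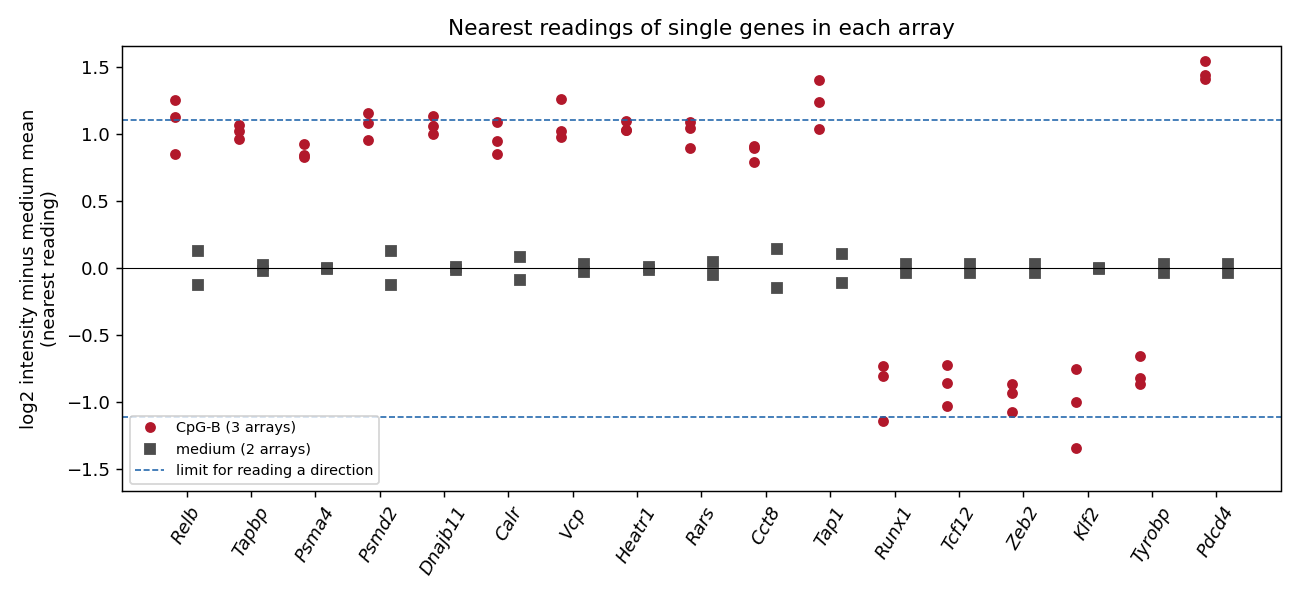
Each point is 1 array: the vertical axis is log2 intensity minus the mean of the medium arrays, read to the nearest value, for 17 genes along the horizontal axis. CpG-B arrays (circles) stand apart from medium arrays (squares) in every gene shown. For those picked by the rule over all genes, standing apart was a condition of naming. The mean readings of Tap1 (1.23) and Pdcd4 (1.47) lie beyond the dashed limit of 1.11, which applies to the mean, so their direction could not be read.

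The genes that carry and pass on the TLR9 signal were called in both directions. Of 20 measured genes for sensing, transport and adaptors, 10 were called, 4 higher, 5 lower and 1 with 2 readings, and the list's median was 0.06. Tlr9 itself read 0.50, 0.30 and 0.30 with CpG-B, against -0.10 and 0.10 in medium, a difference of 0.37 ± 0.13 (adjusted p = 0.0492, limma) that was not called when any 1 of the 5 arrays was left out. Slc15a4, a lysosomal histidine and peptide transporter that TLR9 signalling in pDC needs, read -0.99, -1.17 and -1.08 in the CpG-B arrays, against -0.14 and 0.14 in medium, a difference of -1.08 ± 0.18. Lgmn, a protease that cleaves TLR9 in the endosome, was higher by 0.84 ± 0.18. Unc93b1, which escorts TLR9 to the endosome, was lower (reading -0.42 ± 0.12, adjusted p = 0.016, limma), a call lost without CpG-B replicate 3 or without either medium array. Myd88 read 0.14 ± 0.16 and was not called. Without medium replicate 3 only 2 of the 20 genes were called, and without medium replicate 1, 5 were.

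NF-kB subunits and their inhibitors are both carriers and targets of the NF-kB pathway. Of 20 measured, 11 were called, 4 higher and 7 with 2 possible readings, with a median of 0.70 beside -0.05 over all genes. Only 13 of the 20 readings lay within the limit for a direction. Relb, the subunit of the alternative pathway, read 1.13, 1.26 and 0.85 with CpG-B, against 0.13 and -0.13 in medium (difference 1.08 ± 0.18, adjusted p = 0.000279, limma). Birc3, an inhibitor of apoptosis and a regulator of that pathway, was higher by 0.71 ± 0.14. Nfkb2, the partner of RelB, read 1.35, 1.47 and 1.38 in the CpG-B arrays, against 0.17 and -0.17 in medium, so it was either higher by 1.40 or lower, at -1.92. The feedback inhibitors had 2 readings as well, namely Nfkbia (1.55 or -1.77), Tnip1 (1.64 or -1.68) and Tnfaip3 (1.51 or -1.81). Without medium replicate 1, 2 members rather than 4 were called higher.

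Promoter windows of 3 called genes are shown because NF-kB binds them in many cell types. In RefSeq promoter sequences of build GRCm38.p6, which span 250 bases before and 50 after a start site, the letters GGG, any 2 bases and TTTCC were searched on both strands. They were in 8 of the 23 promoters of the list (34.8%, belonging to 6 of 18 genes with an entry), against 1.63% of all 32851 promoters. The capitals mark the match, in the direction of the motif:
Nfkb2 (chr19:46305697-46305722, plus strand): gtattttcGGGACTTTCCtaagcagc
Nfkbia (chr12:55492659-55492684, plus strand): caggcgcgGGGAATTTCCaagccagt
Tnfaip3 (chr10:19015405-19015430, plus strand): gccaacagGGGGATTTCCgatggaaa
The second promoter of Nfkb2, whole, is given with its match in capitals:
Nfkb2 promoter (chr19:46305445-46305744, plus strand): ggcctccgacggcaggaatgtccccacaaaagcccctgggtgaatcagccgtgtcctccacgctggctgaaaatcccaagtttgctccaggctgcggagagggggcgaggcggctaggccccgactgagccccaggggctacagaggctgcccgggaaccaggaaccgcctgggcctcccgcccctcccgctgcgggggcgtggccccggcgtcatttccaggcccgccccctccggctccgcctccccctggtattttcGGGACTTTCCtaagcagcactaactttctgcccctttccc
A match describes these letters and shows no binding here. Of the 6 genes with a match, Cyld (0.17) and Rel (-0.21), named after their values were seen, were not called.

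The MHC class I pathway takes its peptides from the proteasome. Of 31 measured subunits of the constitutive proteasome, which degrades ubiquitin-tagged proteins, 30 were called, 24 of them higher and 6 with 2 readings, and all 31 read above 0 (median 0.85). Psmd2, a subunit of the regulatory particle, read 1.09, 1.16 and 0.96 with CpG-B, against 0.13 and -0.13 in medium (difference 1.07 ± 0.14, adjusted p = 2.98e-05, limma). Psma5 of the core ring read 0.97, 0.76 and 0.97 in the CpG-B arrays, against 0.03 and -0.03 in medium (0.90 ± 0.13). The core subunits Psma4 (0.87 ± 0.12) and Psmb7 (1.01 ± 0.14) were higher too, and the regulatory subunits Psmd1 (1.47 or -1.85) and Psmc6 (1.49 or -1.84) had 2 readings. The immunoproteasome, whose catalytic subunits interferon induces, had 1 of 6 measured members called (16.7%, against 19.2% over all genes). This was Psmb9 (0.52 ± 0.14), and that call was lost without medium replicate 3. All 6 members read above 0, with a median of 0.23. Without medium replicate 3 the constitutive proteasome had 15 members called higher.

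Of 11 measured genes for loading peptides onto MHC class I, 10 were called (19.2% over all genes), 7 higher and 3 with 2 readings (median 0.81). Tapbp, tapasin, which holds the class I molecule at the peptide transporter, read 1.02, 1.07 and 0.97 with CpG-B, against -0.02 and 0.02 in medium (1.02 ± 0.12). The transporter subunit Tap2 was higher by 0.80 ± 0.16, the trimming peptidase Erap1 by 0.81 ± 0.15 and the chaperone Calr by 0.97 ± 0.13. Calr is also counted in the list of ER chaperones below, so these lists are not fully separate. Tap1 read 1.24, 1.41 and 1.04 in the CpG-B arrays, against 0.11 and -0.11 in medium, which allows 1.23 or -2.09. Pdia3, the oxidoreductase of the loading complex, read 1.14 or -2.18.

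The secretory pathway was covered by 3 lists. Of 34 measured genes of the unfolded protein response (UPR) and of ER chaperones, 27 were called, 15 higher, 1 lower and 11 with 2 readings, with a median of 0.74. Atf4, a transcription factor of the stress response, read 1.05, 0.95 and 1.04 with CpG-B, against -0.10 and 0.10 in medium (1.01 ± 0.13, adjusted p = 1.82e-05, limma). Sel1l, the adaptor of the ubiquitin ligase for ER proteins, read 1.06, 1.11 and 0.93 in the CpG-B arrays, against 0.09 and -0.09 in medium (1.03 ± 0.13). The ligase itself, Syvn1, was higher by 0.71 ± 0.14 and the cochaperone Dnajc3 by 0.80 ± 0.13. Hspa5, the main ER chaperone BiP, lay just beyond the limit: it read 1.09, 1.22 and 1.11 with CpG-B, against 0.05 and -0.05 in medium, which allows 1.14 or -2.18. Manf (1.14 or -2.18) and Pdia6 (1.37 or -1.96) stood likewise, and Creld2 read -1.62 or 1.70. Canx (0.49 ± 0.12) and Hsp90b1 (0.37 ± 0.12) had smaller differences, and both calls were lost when single arrays were left out. Without medium replicate 1 the list had 10 members called higher.

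ER stress response elements are shown for these genes because the UPR factors ATF6 and XBP1 are known to act through them. The letters CCAAT and CCACG with 9 bases between them, on either strand, were in 10 of 35 promoters of the list (28.6%, 10 of 30 genes with an entry), against 0.119% of all promoters. All matches are given in the direction of the motif, with the match in capitals and 8 bases on each side:
Hspa5 (chr2:34772017-34772051, plus strand): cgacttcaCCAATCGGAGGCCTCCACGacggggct
Calr (chr8:84847067-84847101, plus strand): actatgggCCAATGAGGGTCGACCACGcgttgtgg
Hsp90b1 (chr10:86705630-86705664, minus strand): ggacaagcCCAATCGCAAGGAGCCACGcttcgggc
Hsp90b1 (chr10:86705525-86705559, plus strand): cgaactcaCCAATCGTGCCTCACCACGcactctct
Canx (chr11:50325792-50325826, minus strand): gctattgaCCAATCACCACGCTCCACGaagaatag
Pdia6 (chr12:17266483-17266517, plus strand): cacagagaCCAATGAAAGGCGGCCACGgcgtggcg
Dnajc3 (chr14:118937819-118937853, plus strand): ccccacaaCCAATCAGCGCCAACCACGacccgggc
Creld2 (chr15:88819512-88819546, minus strand): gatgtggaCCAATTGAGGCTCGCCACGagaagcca
Syvn1 (chr19:6046524-6046558, plus strand): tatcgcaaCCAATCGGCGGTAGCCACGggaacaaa
Derl3 (chr10:75893234-75893268, minus strand): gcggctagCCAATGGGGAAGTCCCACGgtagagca
Ero1b (chr13:12565674-12565708, minus strand): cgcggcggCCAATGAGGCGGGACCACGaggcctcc
Of the 10 genes, Calr, Hsp90b1, Canx, Dnajc3 and Syvn1 were higher, and Hspa5, Pdia6 and Creld2 were called with 2 readings. Derl3 (0.17 ± 0.18) and Ero1b (-0.16 ± 0.14) were not called, so the same letters stood before genes with and without a call. None of the 11 windows held another motif searched here.

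Proteins enter the ER through the translocon and leave it in coated vesicles. Of 29 measured genes of the translocon and of N-glycosylation, 17 were called, 13 higher and 4 with 2 readings (median 0.48). Rpn2 (0.92 ± 0.14), Stt3a (0.86 ± 0.13) and Ostc (0.84 ± 0.14) of the oligosaccharyltransferase, which adds sugars to nascent chains, were among them, as was Ssr3 (0.74 ± 0.13), while Ssr2 read 1.61 or -1.71. Of 29 measured genes of the COPII and COPI coats, 16 were called, 13 higher and 3 with 2 readings (median 0.44). Sec23b of the COPII coat read 1.13, 1.09 and 0.79 with CpG-B, against 0.01 and -0.01 in medium (1.00 ± 0.13). Tmed9 (0.96 ± 0.16), Arf4 (0.85 ± 0.16) and Sec24a (0.82 ± 0.15) were higher too, and the cargo receptor gene Lman1 read 1.29 or -2.03.

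**Figure D2:**
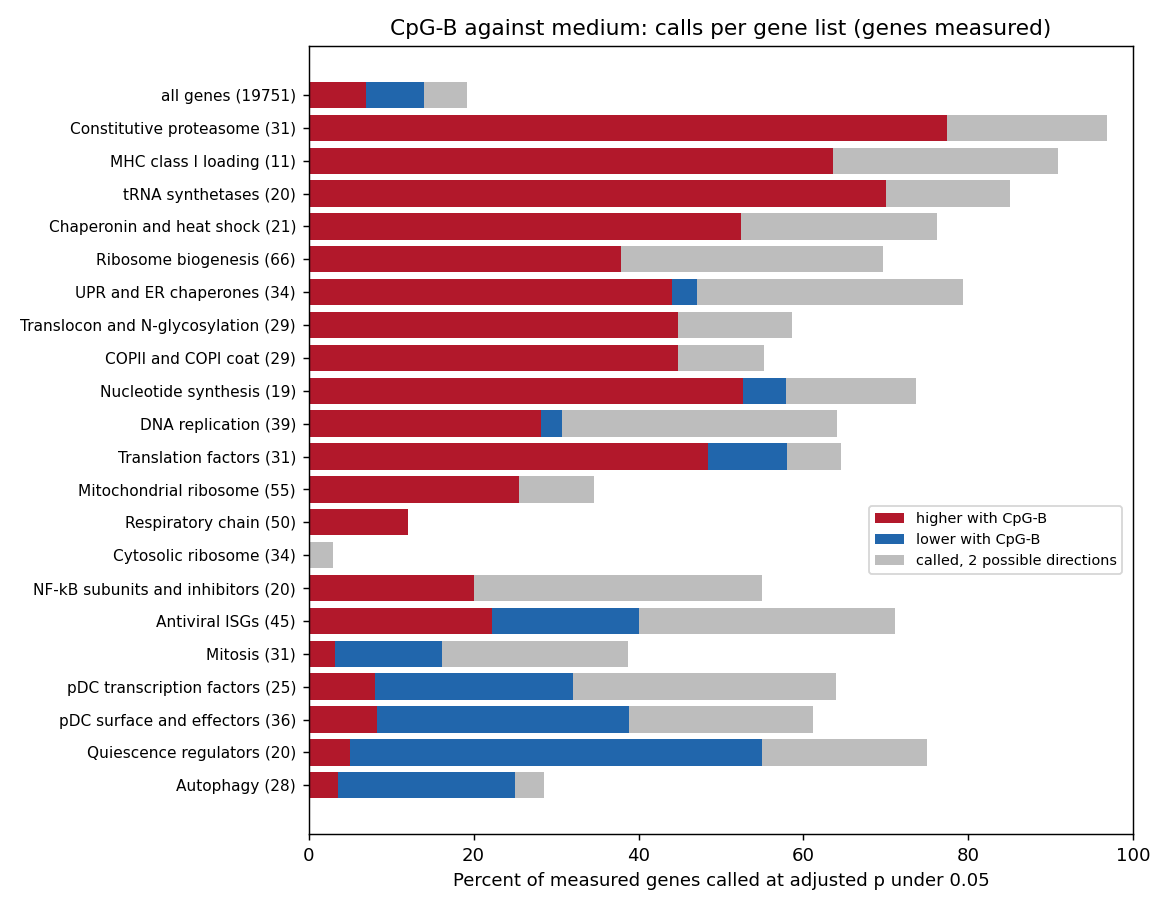
Bars give the percent of each list's measured genes that were called higher (red), lower (blue) or with 2 possible directions (grey) in CpG-B against medium. Over all 19751 genes 6.94% were higher and 7.0% lower; proteasome, tRNA synthetase and class I loading lists lie far to the right and the cytosolic ribosome list near 0.

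Ribosome biogenesis is the making of ribosomes in the nucleolus. Of 66 measured, 46 were called, 25 higher and 21 with 2 readings, and 60 read above 0 (median 0.90). Of the 66 readings, 45 lay within the limit for a direction. Ncl, nucleolin, read 1.14, 1.10 and 1.00 with CpG-B, against 0.13 and -0.13 in medium (1.08 ± 0.14, adjusted p = 2.2e-05, limma). Wdr75 read 1.16, 1.12 and 0.99 in the CpG-B arrays, against -0.13 and 0.13 in medium (1.09 ± 0.14), and Utp11 was higher by 1.08 ± 0.14; both belong to the particle that processes the precursor of the small subunit. Wdr43 (1.52 or -1.81), Nop58 (-1.56 or 1.76) and the methyltransferase Nop2 (1.30 or -2.02) had 2 readings. Myc, a transcription factor known to drive ribosome production, read 1.68, 1.68 and 1.29 with CpG-B, against -0.06 and 0.06 in medium, which allows 1.55 or -1.77, and neither of its loops closed.

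The letters CACGTG, the core sequence that MYC binds, are shown for 3 genes of this list that were higher. They were in 10 of the list's 62 promoters (16.1%, 10 of 57 genes with an entry), against 7.15% of all promoters, with the match in capitals:
Ltv1 (chr10:13193096-13193117, minus strand): tgtggaccCACGTGtggagctg
Pes1 (chr11:3963969-3963990, plus strand): aggcagggCACGTGcgggagga
Tsr1 (chr11:74898096-74898117, plus strand): ttggtgcaCACGTGgactgcag
Of the 10 genes with a match, Imp4 was not called, and Nop2, Wdr43, Utp4, Utp18, Utp20 and Tsr2 were called with 2 readings. Imp4, Utp4, Utp18, Utp20 and Tsr2 were named after their values were seen. Ltv1 was higher by 0.99 ± 0.20, Pes1 by 0.90 ± 0.21 and Tsr1 by 0.99 ± 0.14.

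Translation draws on charged tRNA and on initiation and elongation factors. Of 20 measured cytosolic tRNA synthetases, which load amino acids onto tRNA, 17 were called, 14 higher and 3 with 2 readings, and all 20 read above 0 (median 0.99). Rars, for arginine, read 1.05, 1.09 and 0.90 with CpG-B, against -0.05 and 0.05 in medium (1.01 ± 0.13). Those for leucine (Lars, 1.10 ± 0.17), threonine (Tars, 1.10 ± 0.18) and lysine (Kars, 0.90 ± 0.15) were higher, and that for glycine (Gars) read 1.44 or -1.88. Without medium replicate 1, 17 were still called, 9 of them higher and 8 with 2 readings. Of 31 measured translation factors 20 were called, 15 higher, 3 lower and 2 with 2 readings (median 0.41). Eif3b, a scaffold of the initiation factor eIF3, read 0.92, 1.03 and 0.95 in the CpG-B arrays, against 0.20 and -0.20 in medium (0.97 ± 0.15). The 2 repressors of the cap-binding protein went opposite ways, Eif4ebp1 at 0.91 ± 0.15 and Eif4ebp2 at -0.98 ± 0.14. Without medium replicate 3, 8 translation factors were called higher.

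Chaperonins and heat shock proteins, which fold new proteins, had 16 of 21 measured genes called, 11 higher and 5 with 2 readings (median 0.72). Cct7 of the TRiC chaperonin read 1.02, 1.16 and 0.92 with CpG-B, against 0.07 and -0.07 in medium (1.03 ± 0.13). Cct8 (0.87 ± 0.14) and Tcp1 (0.80 ± 0.13) of the same ring were higher, and the mitochondrial Hspe1 was higher by 0.85 ± 0.14 in the probe set used and by 0.40 in its other one. Hspa9, the mitochondrial HSP70, read 1.45 or -1.87. In the mitochondrial ribosome 19 of 55 measured genes were called, 14 higher and 5 with 2 readings, and 49 read above 0 (median 0.35), among them Mrpl39 (0.77 ± 0.13), Mrpl32 (1.08 ± 0.20) and Mrpl45 (0.83 ± 0.17). That count was 8 higher without medium replicate 1 and 4 without medium replicate 3. Of 34 measured cytosolic ribosomal protein genes 1 was called, with 2 readings, and their median was -0.05, as over all genes.

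Of 19 measured genes of nucleotide synthesis 14 were called, 10 higher, 1 lower and 3 with 2 readings (median 0.57). Gart, a trifunctional enzyme of purine synthesis, read 1.13, 1.16 and 0.92 with CpG-B, against 0.24 and -0.24 in medium (1.07 ± 0.17). Umps, of pyrimidine synthesis, read 1.60 or -1.73, and Ctps2 was the lower one. The number called higher was 2 without medium replicate 1, 4 without medium replicate 3 and 6 without each CpG-B array in turn.

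In nearest readings, genes of DNA replication and of mitosis had medians of opposite sign. Of these readings, 26 of 39 and 24 of 31 lay within the limit for reading a direction. Of 39 measured genes of DNA replication 25 were called, 11 higher, 1 lower and 13 with 2 readings (median 0.70). Fen1, the nuclease of Okazaki fragments, read 0.85, 1.10 and 0.91 with CpG-B, against -0.08 and 0.08 in medium (0.95 ± 0.16), and the clamp loader subunit Rfc2 was higher by 0.90 ± 0.19. Mcm5 of the replicative helicase read 1.16, 1.12 and 0.84 in the CpG-B arrays, against 0.07 and -0.07 in medium (1.04 ± 0.20), but its loop through LIF did not close, and Mcm2 read -1.60 or 1.73. Without either medium array 5 replication genes were called higher.

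Nearest readings of mitosis genes lay the other way, with 27 of 31 measured below 0 and a median of -0.56. Of the 31 genes, 12 were called, 1 higher, 4 lower and 7 with 2 readings. Cdc20, the activator of the anaphase-promoting complex, read -0.98, -0.95 and -0.90 with CpG-B, against 0.06 and -0.06 in medium (-0.94 ± 0.15, adjusted p = 0.000163, limma). Kif23, a kinesin of cytokinesis, was lower at -1.09 ± 0.20, and the kinetochore gene Cenpf read -1.26 or 2.06. Without medium replicate 3, 2 mitosis genes were called lower. Of 27 measured G1 regulators 17 were called, 6 higher, 3 lower and 8 with 2 readings, with 3 higher without CpG-B replicate 2 or medium replicate 1. The retinoblastoma gene Rb1 was lower at -0.90 ± 0.18, while its relative Rbl1 was higher by 1.06 ± 0.22. Regulators known for keeping lymphoid cells quiescent had 15 of 20 called, 1 higher, 10 lower and 4 with 2 readings (median -0.65). Klf2 read between -1.34 and -0.75 in the CpG-B arrays, against -0.01 and 0.01 in medium (-1.03 ± 0.17), and Klf4 (-0.83 ± 0.14) and Foxo1 (-0.64 ± 0.14) were lower. The call for Foxo1 was lost without medium replicate 1, and the list had 2 lower members without that array and 5 without medium replicate 3. Pdcd4, a translational repressor of the same list, read 1.42, 1.45 and 1.55 with CpG-B, against 0.04 and -0.04 in medium, which allows 1.47 or -1.85.

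Of the pDC genes called with a readable direction, more were lower than higher, but many calls had 2 readings. The shares over all genes were 19.2% called, 6.94% higher, 7.0% lower and 5.27% with 2 readings. Of 25 measured pDC transcription factors 16 were called, 2 higher, 6 lower and 8 with 2 readings (median -0.46). Zeb2, which keeps the pDC program by repressing Id2, read -0.87, -1.07 and -0.93 with CpG-B, against 0.04 and -0.04 in medium (-0.96 ± 0.12, adjusted p = 2.3e-05, limma). Tcf12, an E protein, read -0.85, -0.72 and -1.03 in the CpG-B arrays, against -0.03 and 0.03 in medium (-0.87 ± 0.14). Runx1 (-0.89 ± 0.15), Spib (-0.74 ± 0.16) and Irf8 (-0.54 ± 0.15) were lower, though the Spib call was lost without medium replicate 3 and the Irf8 call without CpG-B replicate 3 or medium replicate 1. The E protein Tcf4, the master regulator of pDC, read -1.54, -1.24 and -1.45 with CpG-B, against -0.04 and 0.04 in medium, which allows -1.41 or 1.91. Bcl11a (-1.45 or 1.88) also had 2 readings. Etv6 was higher by 1.05 ± 0.18, and so was Id2, the antagonist of E proteins, which read 0.89, 0.37 and 0.98 in the CpG-B arrays, against 0.07 and -0.07 in medium (0.75 ± 0.18, lost without medium replicate 3). Id3 read 0.20 ± 0.34 and was not called. Leaving out medium replicate 3, 0 of these factors were called higher.

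On the surface and among effectors of pDC, 22 of 36 measured genes were called, 3 higher, 11 lower and 8 with 2 readings. Of the 36 nearest readings, 17 lay above 0 and 19 below, with a median of -0.10. Plac8 read -0.82, -0.79 and -0.65 with CpG-B, against -0.02 and 0.02 in medium (-0.75 ± 0.12). Tspan13 (-0.70 ± 0.14), Klra17 (-0.79 ± 0.15) and Epha2 (-1.07 ± 0.19) were lower, and Cd8a was higher by 1.01 ± 0.17. Siglech, whose product was used in the sort, read 1.39, 1.57 and 1.25 in the CpG-B arrays (1.40 or -1.92), with a loop through CpG-A that did not close. Cox6a2 read -1.52 or 1.80 and the cytokine receptor gene Flt3 -1.59 or 1.73. Outside this list, Tyrobp, DAP12, the adaptor through which Siglec-H signals, read -0.86, -0.65 and -0.82 with CpG-B, against 0.03 and -0.03 in medium (-0.78 ± 0.12). Not called among the surface genes were Bst2, the antigen tetherin (0.17 ± 0.17), the gut-homing receptor Ccr9 (-0.27 ± 0.15) and Ptprs (0.50 ± 0.17, adjusted p = 0.0509, limma). Without either medium array, 7 of these genes were called lower, and without CpG-B replicate 3, 1 was called higher.

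Maturation genes gave a mixed picture. Ccr7, the receptor that guides dendritic cells to lymph nodes, read 0.86, 0.67 and 0.75 with CpG-B, against 0.26 and -0.26 in medium (0.76 ± 0.20), a call lost without medium replicate 3. Cd69, an early activation marker, was higher by 0.97 ± 0.20 and was lost in the same way. Cd44 read 1.44 or -1.88, and of the co-stimulatory genes Cd40 (0.38 ± 0.19, adjusted p = 0.192) and Cd86 (-0.46 ± 0.24, adjusted p = 0.211) were not called by limma, while Cd83 read -1.61 or 1.71. Cd80 read -1.19 or 2.13 in the probe set used, while its other probe set was not called. Over 26 measured co-stimulatory and checkpoint genes 15 were called, 5 higher, 2 lower and 8 with 2 readings. Without medium replicate 1 that was 3 higher and 0 lower, and without medium replicate 3, 2 higher and 0 lower. Integrins and adhesion molecules had 13 of 29 called, 5 higher, 3 lower and 5 with 2 readings, and 19 read below 0 (median -0.13). Without CpG-B replicate 1 or medium replicate 1, 3 of them were higher, and without CpG-B replicate 3 or either medium array 1 was lower. The higher ones included Pecam1, which read 1.10, 1.10 and 1.11 with CpG-B, against 0.10 and -0.10 in medium (1.10 ± 0.16), Itgb7 (1.08 ± 0.15), Itga5 (1.10 ± 0.19) and Icam1 (0.96 ± 0.17, loop not closed). Also higher were Kit (1.04 ± 0.20) and Bcl2, which protects from apoptosis (1.09 ± 0.21). The interleukin-6 receptor gene Il6ra was lower at -0.96 ± 0.18.

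In MHC class II presentation 8 of 15 measured genes were called, 4 higher, 3 lower and 1 with 2 readings. H2-Ab1, a class II beta chain, read 0.77, 1.11 and 0.87 in the CpG-B arrays, against 0.15 and -0.15 in medium (0.92 ± 0.23, lost without medium replicate 3). Cd74, the invariant chain, was higher by 0.66 ± 0.18, a call lost without CpG-B replicate 2 or either medium array, and H2-Eb1 read 1.46 or -1.86. Ciita, the class II transactivator, read 0.13, 1.28 and 0.35 with CpG-B, against -0.10 and 0.10 in medium, and was not called. Without medium replicate 3, 2 of the 15 genes were called, both with 2 readings, and without medium replicate 1, 3 were called, 2 of them higher. The number called was 5 without CpG-B replicate 1 and 4 without CpG-B replicate 3.

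Of 23 measured inflammatory cytokine genes 13 were not called, 1 was lower and 9 had 2 readings. The number called was 6 without medium replicate 3. Tnf read 1.70, 1.61 and 1.50 with CpG-B, against -0.10 and 0.10 in medium (1.60 or -1.72). Il6 read -1.29 or 2.03, Il12a 1.30 or -2.02 and Il12b 1.14 or -2.19, and both Il12 calls were lost when single arrays were left out. Il10 read 0.82 ± 0.33 and was not called (adjusted p = 0.0952, limma). The chemokines Ccl3 (-1.32 or 2.00), Ccl4 (-1.09 or 2.24) and Ccl5 (-1.06 or 2.26) are given as pairs, since their loops through LIF did not close, although the readings of Ccl4 and Ccl5 lie within the limit and were called lower. Socs3, a feedback inhibitor of cytokine receptors, read 1.61 or -1.71 with neither loop closed, and its second probe set read 0.98, while Socs1 was not called (0.32 ± 0.18). None of the 13 measured type I and III interferon genes was called by limma, 0 had an unadjusted p under 0.05 and 0 were called with the robust variance prior. A change near 10-fold would read near 0, so these results do not show that the genes were unchanged. Ifnb1 read -0.77, -0.51 and -0.06 with CpG-B, against -0.10 and 0.10 in medium, and Ifna4 read -0.02, 0.02 and 0.61, against 0.05 and -0.05, both within the spread between arrays or close to it.

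Interferon-stimulated antiviral genes were called in both directions. Of 45 measured 32 were called, 10 higher, 8 lower and 14 with 2 readings (median 0.20). Shisa5 read 1.12, 1.02 and 1.03 with CpG-B, against -0.17 and 0.17 in medium (1.06 ± 0.16, adjusted p = 0.000127, limma). Trim30a, a feedback inhibitor of TLR signalling, read 0.64, 0.70 and 0.62 in the CpG-B arrays, against 0.04 and -0.04 in medium (0.65 ± 0.12). Herc6, a ligase for ISG15, was lower at -1.02 ± 0.17, and Helz2 (1.58 or -1.74) and Dtx3l (1.53 or -1.80) had 2 readings. Ifit1 was read as higher (1.10 ± 0.18), and so was Stat2, the interferon receptor's signal transducer and not a member of this list (0.88 ± 0.14), but their loops through CpG-A did not close. The interferon-induced chemokine gene Cxcl10 was lower at -0.79 ± 0.22, a call lost without CpG-B replicate 2 or either medium array. Irf7, the master regulator of interferon genes, counted with the pDC factors, read -1.50, -1.31 and -1.54 with CpG-B, against 0.19 and -0.19 in medium, which allows -1.45 or 1.87. Without medium replicate 1, 5 antiviral genes were called higher and 3 lower, and without medium replicate 3, 2 and 4 were. Without CpG-B replicate 2 or 3, 5 were called lower.

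Interferon-stimulated response elements are shown for 4 of these genes that were called. The letters GAAA, any 2 bases and GAAA, on either strand, were in 16 of the list's 45 promoters (35.6%, 15 of 35 genes with an entry), against 3.44% of all promoters. Ifit1, Ifit3 and Oas1a each have a second match, which in Oas1a overlaps the one shown:
Ifit1 (chr19:34640796-34640821, minus strand): agcagtgaGAAACTGAAActgagact
Ifit3 (chr19:34583399-34583424, minus strand): ggaaagtaGAAACTGAAAcagactta
Oas3 (chr5:120777717-120777742, minus strand): agggaggaGAAAACGAAAgtgaaggg
Oas1a (chr5:120907528-120907553, minus strand): cttctcggGAAATGGAAActgaaaat
Ifit3 was higher by 0.81 ± 0.22 and the oligoadenylate synthetase gene Oas3 by 0.77 ± 0.17, while its paralogue Oas1a was lower at -0.87 ± 0.20. Of the 15 genes with a match, Bst2, Ifih1, Ifitm2, Rsad2 and Trim21 were not called, all but Bst2 named after their values were seen. The calls of Ifit3, Oas3 and Oas1a were each lost without at least 1 array.

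The share of genes called varied between metabolic lists. In amino acid transport, serine and one-carbon metabolism 16 of 23 measured genes were called, 4 higher, 3 lower and 9 with 2 readings, with 1 lower without medium replicate 1. Cholesterol synthesis had 9 of 26 measured genes called, 8 higher and 1 lower (median 0.28), with Fdps at 1.02 ± 0.19 and Hsd17b7 at 1.00 ± 0.20. Without medium replicate 1, 2 of them were called higher, and without medium replicate 3 or CpG-B replicate 1 or 2 between 4 and 5 were. Fatty acid synthesis had 3 of 14 called, 2 higher and 1 with 2 readings, and the citrate cycle 4 of 19, 2 higher, 1 lower and 1 with 2 readings, both close to the 19.2% over all genes. Without either medium array 1 citrate cycle gene was called. Fasn, fatty acid synthase, read 0.99, 1.05 and 0.94 with CpG-B, against -0.13 and 0.13 in medium (0.99 ± 0.13, adjusted p = 2.37e-05, limma). In glycolysis 10 of 20 were called, 4 higher, 1 lower and 5 with 2 readings, with 2 higher without CpG-B replicate 2 or 3 or medium replicate 1. Pgk1 was higher by 0.92 ± 0.20, and the lactate transporter Slc16a1 was higher by 1.07 ± 0.21. The respiratory chain had 6 of 50 called (19.2% over all genes), all 6 higher, including Ndufs4 (0.63 ± 0.13), and 3 higher without medium replicate 3.

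Lysosomal genes were called in both directions, 16 of 39 measured, 6 higher, 6 lower and 4 with 2 readings, with 3 lower without medium replicate 1 and 2 without medium replicate 3. Lamp1, a lysosomal membrane protein, read 0.88, 0.91 and 0.81 with CpG-B, against -0.03 and 0.03 in medium (0.87 ± 0.12), and the proton pump subunit Atp6v1h (1.10 ± 0.15) and the cholesterol carrier Npc2 (0.69 ± 0.12) were higher, while Man2b1 was lower. In autophagy 8 of 28 were called (28.6%, against 19.2% over all genes), 1 higher, 6 lower and 1 with 2 readings (median -0.31). Sqstm1, the receptor that brings ubiquitinated cargo to autophagosomes, was the higher one at 1.10 ± 0.19. Atg16l2 was lower at -0.99 ± 0.19, and the kinase gene Ulk2 read -1.38 or 1.94. Without medium replicate 3 the autophagy list had 2 lower members, without medium replicate 1, 3, and without CpG-B replicate 1, 4. The peroxidase gene Gpx1 was lower at -0.98 ± 0.14.

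Markers of other cells that a bone marrow sort could hold were tested beside these lists. Over all genes 19.2% were called, 6.94% higher, 7.0% lower and 5.27% with 2 readings. Called were 5 of 18 B cell markers (2 lower, 3 with 2 readings), 3 of 9 plasma cell markers (all with 2 readings), 1 of 13 T and NK cell markers, 5 of 15 neutrophil and progenitor markers, 1 of 8 erythroid and megakaryocyte markers, 10 of 18 conventional dendritic cell markers (3 higher, 5 lower) and 12 of 17 monocyte and macrophage markers (3 higher, 1 lower, 8 with 2 readings). B cell markers read below 0 in 16 of 18 cases, and without medium replicate 3, 3 were called and 0 of them lower. Conventional dendritic cell markers had 5 called without medium replicate 1 and 4 without medium replicate 3, with 1 higher and 1 lower in each case, and 2 lower without CpG-B replicate 2 or 3. Of plasma cell markers 2 were higher without medium replicate 1. Neutrophil and progenitor markers had 1 called without CpG-B replicate 1, 2 without medium replicate 1 and 0 without medium replicate 3. Of monocyte and macrophage markers 0 were higher without medium replicate 3 and 5 without CpG-B replicate 3. Because levels are unknown, no summed marker level could be formed for either group, the part of such cells in the results was not tested, and in arrays of sorted cells fewer cells of a type and less RNA per cell cannot be told apart.

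The response was also read in the arrays of CpG-B + LIF against LIF alone, which the comparison above does not contrast. They are not fully separate from it, since deviations of same-numbered CpG-B and CpG-B + LIF arrays correlated over genes at 0.12, 0.25 and 0.14. There 5025 genes were called (25.4%), 2070 higher (10.5%), 1781 lower (9.02%) and 1174 (5.94%) with 2 readings. Of the 1371 genes higher with CpG-B alone, 809 were also higher in the LIF arrays (59.0% of the 1371 and 39.1% of the 2070), 3 were lower, 252 had 2 readings and 307 were not called. Of the 1383 lower genes, 702 were also lower (50.8% of the 1383 and 39.4% of the 1781), 6 were higher, 125 had 2 readings and 550 were not called. The proteasome list had 22 of 31 higher and 7 with 2 readings in the LIF arrays (median 0.81), ribosome biogenesis 24 of 66 and 39 (median 1.00), and UPR and ER chaperones 17 of 34, with 2 lower and 8 with 2 readings (median 0.73). Single genes were close as well: Dnajb11 differed by 0.93 ± 0.11 in the LIF arrays, Vcp by 0.99 ± 0.11, Tapbp by 1.04 ± 0.11, Zeb2 by -0.91 ± 0.11 and Inpp5d by -1.02 ± 0.12. Klf4, lower with CpG-B alone, read -0.04 ± 0.12 in the LIF arrays and was not called, and Cd8a, Kit and Lgmn, higher with CpG-B alone, were not called there either. Whether these genes differ between the settings was not tested.

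**Figure D3:**
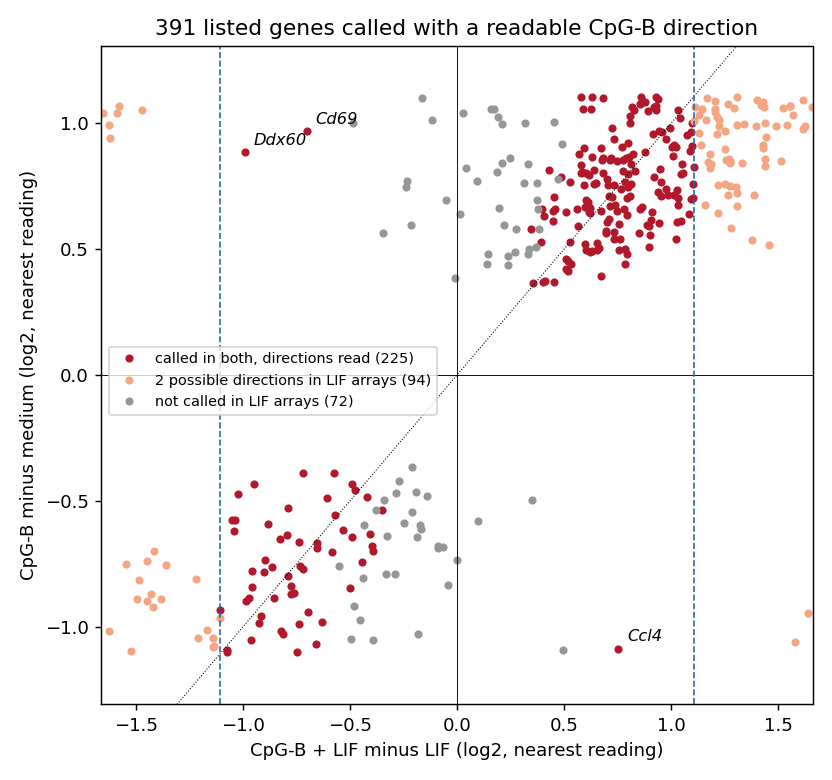
Each of 391 listed genes called with a readable direction is placed by its reading in CpG-B + LIF minus LIF (horizontal) and in CpG-B minus medium (vertical), both log2; the dotted line marks equal values and the dashed lines the limit of 1.11 in the LIF arrays. Of the 225 called with a direction in both, 222 lie in the same direction and Ccl4, Cd69 and Ddx60 in opposite ones. The loop of Ccl4 through LIF did not close, so its direction was not settled.

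CpG-B was also set against CpG-A directly, at the same dose and for the same time, since a difference between CpG classes needs its own test. Here 2560 genes were called (13%), 1212 higher with CpG-B (6.14%), 873 lower with CpG-B (4.42%) and 475 (2.40%) with 2 readings. Antiviral genes were lower with CpG-B than with CpG-A for 22 of 45 measured, with 1 more of 2 readings and a median of -0.51. Leaving out 1 array gave 11 to 14 lower for 5 of the 6 arrays, all but CpG-A replicate 2. Oas1a differed by -0.82 ± 0.18 and Trim30a by -0.38 ± 0.11. Of genes outside that list, Cxcl10 differed by -0.95 ± 0.20. Stat2 read -0.85 or 2.47, and its loop through CpG-A did not close, so its direction was not settled here either. Irf7 was lower with CpG-B at -0.73 ± 0.19 and Ifnb1 at -0.92 ± 0.23, while Tnf read -0.71 or 2.61 with the same loop not closed.

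Cytosolic ribosomal proteins were higher with CpG-B than with CpG-A for 20 of 34 (median 0.56), translation factors for 16 of 31, chaperonins and heat shock proteins for 13 of 21, tRNA synthetases for 11 of 20, the mitochondrial ribosome for 19 of 55 and ribosome biogenesis for 29 of 66, with 1 lower in the last. These counts depend on single arrays. The mitochondrial ribosome had 7 to 9 higher without CpG-A replicate 1 or 3 or CpG-B replicate 1 or 2, and translation factors 9 to 10 without the same arrays. tRNA synthetases had 7 higher without CpG-A replicate 3, and cytosolic ribosomal proteins 13 without CpG-B replicate 3. Heatr1 differed by 1.04 ± 0.11, Ncl by 0.90 ± 0.12, Tsr1 by 0.89 ± 0.12 and Cct7 by 0.75 ± 0.11. The proteasome did not follow, with 1 of 31 called, and neither did class I loading, with 1 of 11, Erap1 (1.02 ± 0.14). For Dnajb11 the difference between the CpG classes was 0.03 ± 0.11, for Vcp 0.17 ± 0.11 and for Psma4 0.11 ± 0.11, none of them called.

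Against medium, which both comparisons share, CpG-A gave 3300 called genes (16.7%), 970 higher (4.91%), 1413 lower (7.15%) and 917 (4.64%) with 2 readings. Of the 34 cytosolic ribosomal protein genes 18 were lower with CpG-A than in medium, with 3 of 2 readings and a median of -0.58, where the median with CpG-B was -0.05. The proteasome list had 24 of 31 higher with CpG-A, as with CpG-B, and a median of 0.70.

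pDC transcription factors were lower with CpG-B than with CpG-A for 9 of 25, with 1 more of 2 readings, and for 5 without CpG-B replicate 3. Spib differed by -1.01 ± 0.15, Tcf4 by -1.03 ± 0.11, Tcf12 by -0.73 ± 0.13, Bcl11a by -0.71 ± 0.15 and Id2 by -0.76 ± 0.16. Surface and effector genes were lower for 9 of 36 and higher for 2 (0 without CpG-B replicate 1 and 4 without CpG-B replicate 2), among the lower Plac8 (-1.05 ± 0.11), Tspan13 (-0.82 ± 0.12) and Ccr9 (-0.59 ± 0.13), and Tyrobp was lower at -0.80 ± 0.11. Tlr9 was lower with CpG-B than with CpG-A at -0.56 ± 0.11, and Slc15a4 at -0.99 ± 0.16. Class II genes stood the other way, 4 of 15 higher and 3 with 2 readings, H2-Ab1 by 1.07 ± 0.20 and Cd74 by 0.79 ± 0.16, but 2 were higher without CpG-A replicate 2 or CpG-B replicate 1.

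**Figure D4:**
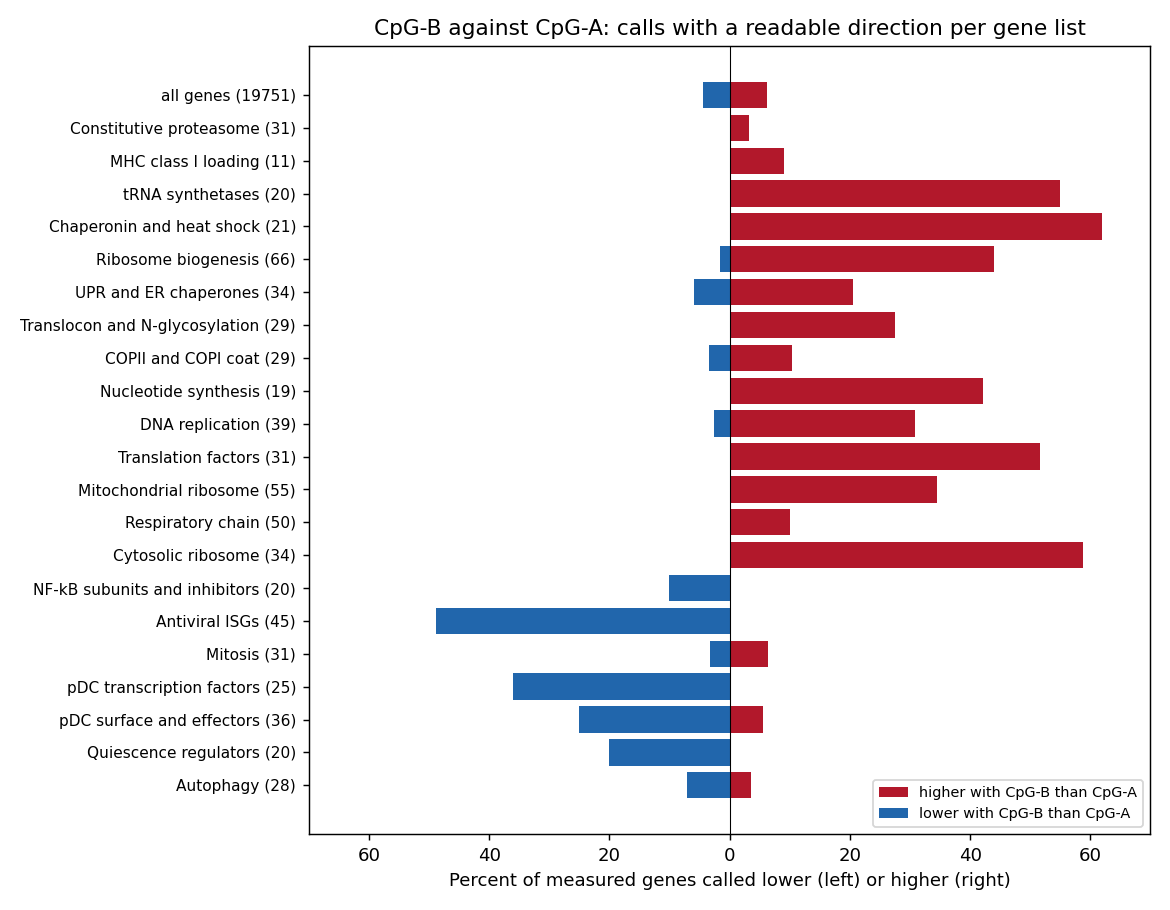
Bars give the percent of each list's measured genes called higher (right, red) or lower (left, blue) with CpG-B than with CpG-A, leaving out calls with 2 possible directions. Over all genes 6.14% were higher and 4.42% lower. Cytosolic ribosome (20 of 34) and chaperonin (13 of 21) lists extend to the right, antiviral genes (22 of 45) and pDC transcription factors (9 of 25) to the left, and 1 of 31 proteasome genes is higher.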

How the data were processed

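The authors deposited 1 table of intensities for 17 arrays and 24680 probe sets, normalised with RMA per the submitters' processing notes, with no version named. Those deposited values are other than a usual unit, since they are digits without a decimal mark. Probe sets with exactly 1 symbol in GEO's platform annotation (21354; 1275 had several and 2051 none) were kept, and for the 893 genes with more than 1, that with the most accessions. Log2 of the digits was taken modulo log2 of 10, with circular group means, and each contrast was read as the value nearest to 0. limma 3.58.1 in R 4.3.3 fitted 1 coefficient per group to all 17 arrays (11 residual degrees of freedom), with empirical Bayes and Benjamini-Hochberg adjustment over 19751 genes. The fit was tested on simulated data. The number of arrays limits the precision.

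The check that readings add up to 0 around loops of groups was added after seeing the data. Alternatives were another way of laying out the arrays, the 5 arrays alone, centring, other probe sets, a robust variance prior, a filter on noisy genes, the replicate number as a block and each array left out.

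Genes are named by set rules: up to 4 with and 2 without a readable direction per list by smallest adjusted p, the 10 higher, 10 lower and 10 without direction over all genes, and a set always named. The 10 higher and 10 lower had to have no overlap between CpG-B and medium arrays. They also had to stay called without each array in turn. A further 18 were chosen after their values were seen, for their promoter matches, as were the others so marked in the text. The members and the 53 lists were chosen with earlier results of these data known, so their counts are descriptions and no set test was run. Figures were drawn with matplotlib.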

Additional observations from a re-analysis of the deposited data

Results flagged for a closer look

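In 3 genes every CpG-B array lay on one side of the medium arrays while every CpG-B + LIF array lay on the opposite side of the LIF arrays. Cd69 read 0.97 with CpG-B against medium (adjusted p = 0.00154, limma) and -0.70 with CpG-B + LIF against LIF (adjusted p = 0.00602, limma). Ddx60, an antiviral helicase gene, read 0.89 with CpG-B against medium and -0.99 with CpG-B + LIF against LIF. Ccl4 read -1.09 with CpG-B against medium and 0.75 with CpG-B + LIF against LIF, and its other reading against medium was 2.24. Its loop through LIF did not close, so its direction was not settled. The call against medium was lost for Cd69 without medium replicate 3, for Ddx60 without CpG-B replicate 1 or medium replicate 3 and for Ccl4 without medium replicate 1. The difference between the settings was not tested for any of the 3, and each reading has a second possible value of opposite sign.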

How the results depend on the processing

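The number of genes called in CpG-B against medium was 3795, and 3679 with arrays laid out from the widest gap, 3656 with the 5 arrays alone, 3751 with arrays centred, 3774 with a robust variance prior, 3629 without the noisiest genes, 4039 over all probe sets and 3828 with the probe set of smallest spread. Leaving out 1 array gave between 2451 and 3393 called, the lowest without medium replicate 3; the genes called higher then numbered 732 to 1152 (793 without medium replicate 1) and those called lower 715 to 1175 (736 without medium replicate 1). The cause was not tested, but such fits have fewer arrays. Laying arrays out from the widest gap turned 3 named genes round: Ccl4 to 0.58 (adjusted p = 0.467, limma), Ccl5 to 2.26 (9.6e-06) and Casp8 to 2.23 (4.79e-08). Over the named genes and the arrays left out, 926 results kept their side of the threshold, 42 lost the call and 2 gained it. No gene called with a readable direction changed sign. Genes with 2 readings could not count as turned round here. A change of sign in a gene not called in either fit was not counted. Deviations of same-numbered arrays correlated at a median of 0.02 and over 0.1 in 6 of 40 pairs. In none of the comparisons tested did every pair pass 0.1, but all 3 pairs of CpG-B with CpG-B + LIF did (0.12 to 0.25). With the replicate block 3821 genes were called in CpG-B against medium, 5145 in CpG-B + LIF against LIF (5025 without it), 3328 in CpG-A against medium (3300) and 2676 in CpG-B against CpG-A (2560). Added after seeing the data, leaving out 1 array gave 4092 to 4638 genes in CpG-B + LIF against LIF and 1909 to 2279 in CpG-B against CpG-A; centring gave 2538 in CpG-B against CpG-A.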
